A study of Sus scrofa with 30 samples.

Results

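Plasma small RNA was examined for 8 of 411 porcine (ssc) miRNAs, the rows named ssc-miR-374, ssc-miR-421 or ssc-miR-545 with any letter or arm. These 8 rows are both arms, 5p and 3p, of 4 hairpins: miR-374a, miR-374b, miR-421 and miR-545. The plasma came from 3 male Göttingen minipigs about 4 months old, which were given 2.2 Gy of total body irradiation (TBI) from a cobalt source at a lethal dose and did not survive. The same animals were bled 7 days (C7) and 1 day (C1) before TBI and 8 times afterwards, first at 0d (6 h after TBI), then at 1d, 3d and 7d, at 10d and 14d, and lastly at 17d and 20d. According to the study's methods they were the control arm of a countermeasure study, so all of them received dextrose under the skin after TBI and antibiotics when neutrophils were low, and no unirradiated animals were followed alongside. C7 and C1 formed the pre-TBI baseline, and the later draws formed 4 phases. Early holds the draws up to 7d, Mid the next pair, Late the 17d draw, and LR, or Late Regression, the last. The study drew these phases from a principal component analysis of the same libraries, so they are not independent of the values compared here.

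The 24 libraries used held 24341 to 550316 counts, with a median of 240612, of which pre-TBI had 6, Early 10, Mid 4, and Late and LR 2 each. The 6 libraries of minipig 3 from 3d on held 0 to 17 counts in all, none of them from the 8 miRNAs, and were left out. Mid, Late and LR therefore rest on minipigs 1 and 2. The Late libraries held 29159 and 63441 counts and the LR libraries 401408 and 550316, so phase and depth cannot be told apart there. The same holds between Mid, with 35762 to 103083 counts, and Early, with 172339 to 524084. Repeated libraries of an animal are not separate animals, and p-values over libraries measure the spread between these libraries.

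Each hairpin is cut into a 5p and a 3p mature miRNA, of which usually 1 arm is the more abundant, and a mature miRNA represses messenger RNAs through its seed, the bases near its 5′ end. In mammals the 4 hairpins lie close together on the X chromosome within FTX, a long non-coding RNA gene of the X-inactivation centre, and so can come from one primary transcript. miR-421 is known for repressing ATM, the kinase that signals DNA double-strand breaks. In the RefSeq annotation of the pig assembly Sscrofa11.1 the genes are listed on chromosome X in the order MIR421, MIR374B, MIR545 and MIR374A, with 0 other genes between them. A single long non-coding RNA gene, LOC102165633, spans all 4, and ZCCHC13 is the next gene.

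The seeds of both abundant arms are shown because the neighbouring hairpins carry different seeds. They are given 5′ to 3′ as the study names them, with the 7 seed bases in capitals.
miR-374b-5p: UAUAAUA
miR-421-3p: UCAACAG
All 7 seed bases of miR-374b-5p are A or U, against 4 of 7 in miR-421-3p. The rows were chosen by their number alone, not by sequence.

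The members differed widely in level. Levels are given as log2 CPM, the counts scaled to a common library total by the trimmed mean of M values (TMM). The mean over the 24 libraries was highest for miR-421-3p, 9.67, rank 159 of 411. miR-374b-5p and miR-374a-5p followed with means of 8.39 and 8.26, and miR-374b-3p with 7.78 and miR-374a-3p with 6.70. The remaining 3 had means of 5.56 (miR-421-5p), 5.53 (miR-545-5p) and 5.49 (miR-545-3p), near the bottom of the table at ranks 406, 407 and 408. Many libraries held fewer than 10 counts of these 3.

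The members also differed in how far their level moved between libraries. The standard deviation (SD) of the log2 CPM was 2.25 for miR-374a-5p and 2.23 for miR-374b-5p, the ranks 3 and 4 of 411, and 1.58 for miR-374b-3p, rank 19. The median SD of all 411 rows was 0.68. The other members lay close to that median, from 0.63 for miR-374a-3p to 0.86 for miR-421-3p.

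**Figure D1:**
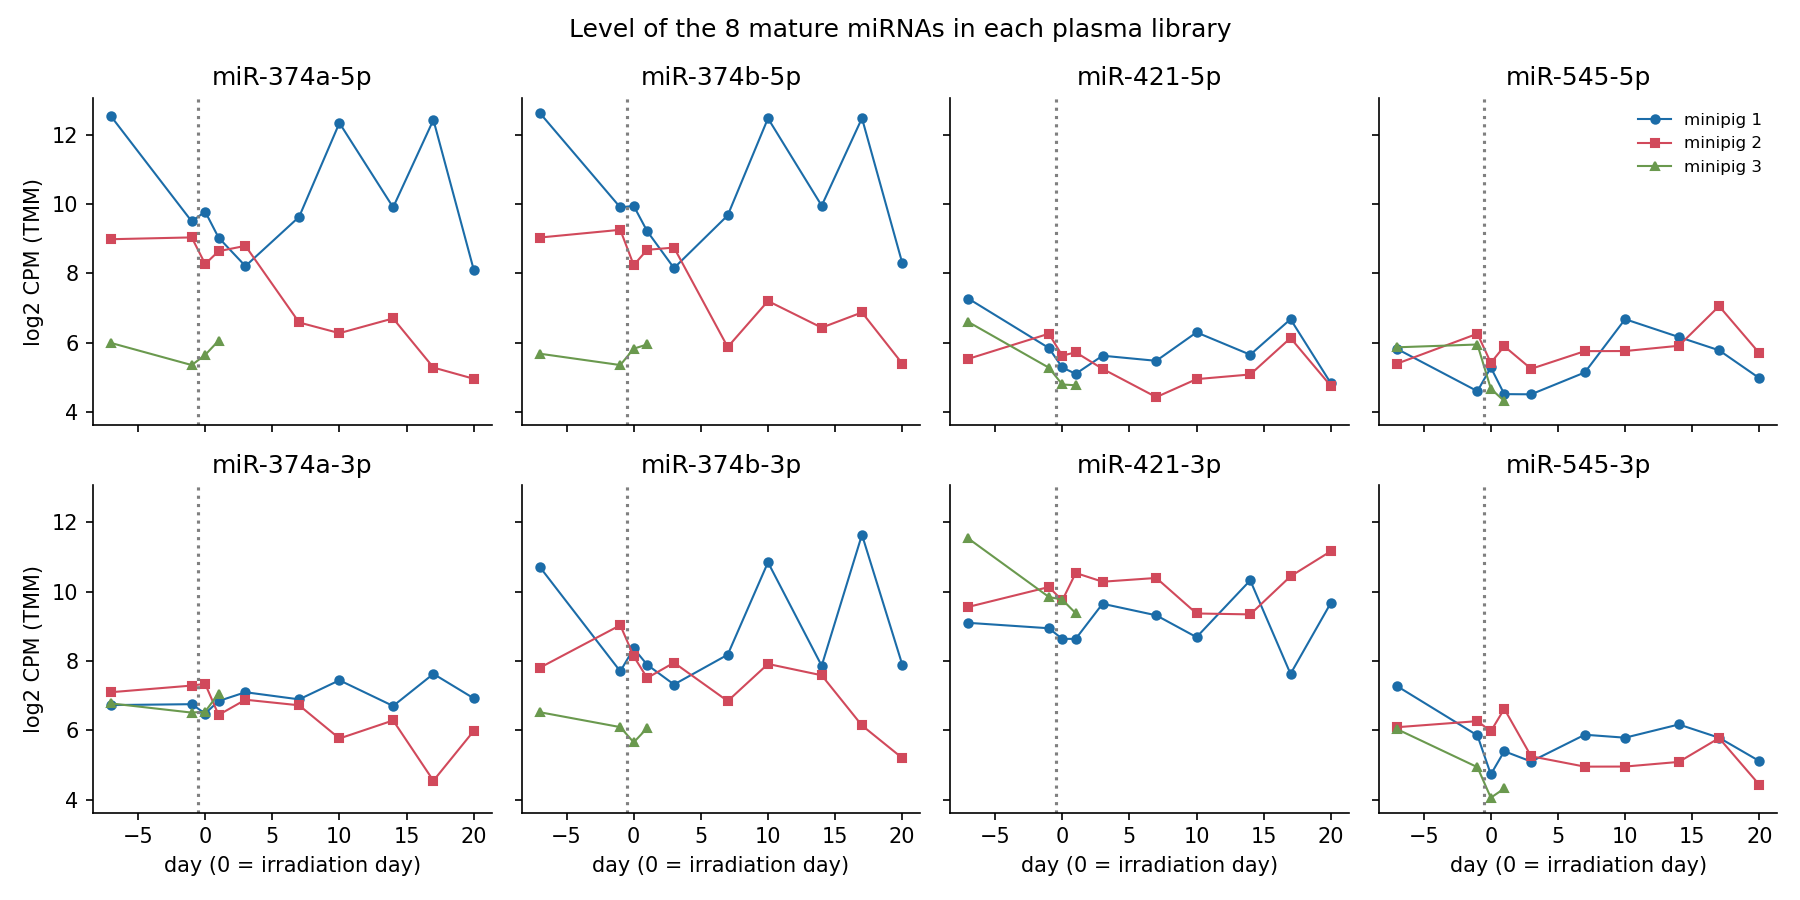
Level of each of the 8 mature miRNAs (y axis, log2 CPM after TMM scaling) by day (x axis, 0 being the day of TBI, dotted line before it) in minipig 1 (circles), 2 (squares) and 3 (triangles), 1 point per library. Minipig 3 lies far below the others for miR-374a-5p and miR-374b-5p already before TBI. For miR-374b-5p it has 5.69 at C7 and 5.36 at C1, against 9.04 and 9.26 in minipig 2 and 9.91 at C1 in minipig 1. The 12.63 of minipig 1 at C7 comes from the smallest of the 24 libraries. miR-374a-3p stays between 4.55 and 7.63 in all 24 libraries.

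ssc-miR-374b-5p is the 5p arm of MIR374B. In minipig 1 its counts were 129 at C7 and 114 at C1, then 156, 154, 73 and 175 over the 4 Early draws in order of time, 239 and 92 over those of Mid, 120 in the Late draw and 103 in the LR draw. Those counts spanned 3.27-fold while the totals of the same 10 libraries spanned 16.5-fold. Among rows with at least 20 counts in each library of this animal the median span was 18.5-fold and 8.49% had a smaller span than miR-374b-5p. Rows of similar course also had small spans, such as miR-378b-3p with 139 to 376 counts, miR-494 with 100 to 343 and miR-376b with 24 to 84. The resulting log2 CPM was 12.63 at C7, 12.47 at 10d and 12.48 at 17d, the 3 smallest libraries of this animal, and 8.16 at 3d to 9.96 at 14d in the other Early, Mid and C1 libraries, with 8.30 at 20d.

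In minipig 2 the miRNA followed another course. Its counts were 120 at C7, 175 at C1 and, over the first 3 Early draws, 134, 178 and 111. From the 7d draw on they were 11, 6, 9, 7 and 25. The 3d library held 0.0426% of its counts as miR-374b-5p and the 7d library 0.00638%, while their totals were 260504 and 172339. The log2 CPM thus differed by -2.87 between 3d and 7d, the 12th lowest of 411 differences, against a median of 0.05. Over the same interval minipig 1 moved the other way, by 1.52, which was the 7th highest of 411. Minipig 3 had 25 counts at C7, 16 at C1, 22 at 0d and 22 at 1d, in libraries of 413030 to 524084 counts. Its log2 CPM, 5.36 to 5.95, was below that of every library of minipig 1 and of all of minipig 2 except 5.88 at 7d and 5.40 at 20d.

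miR-374a-5p is the 5p arm of MIR374A, and its mature sequence is nearly the same as that of miR-374b-5p. Its counts were 76 to 218 in minipig 1, 2 to 173 in minipig 2 and 16 to 32 in minipig 3. Over the 24 libraries it had 2073 counts against 2216 of miR-374b-5p, and the split between them varied by less than sampling noise, with a chi-square of 0.643 per degree of freedom over 23 degrees of freedom. The Spearman correlation of their log2 CPM was 0.97 over the same 24 libraries. Reads of the 2 miRNAs may be shared or divided by the authors' counting, so they are described together and are not separate measurements.

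**Figure D2:**
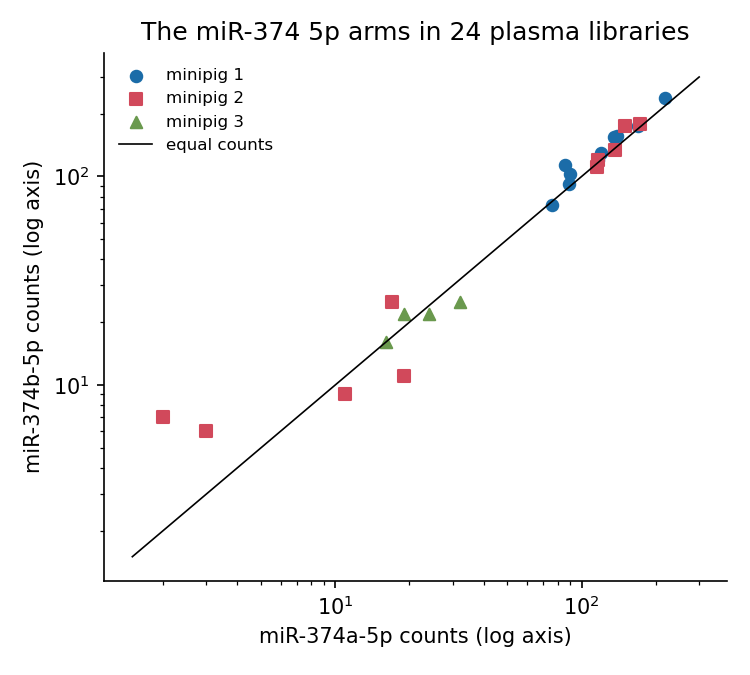
Counts of miR-374a-5p (x axis) against miR-374b-5p (y axis), both on log axes, in the 24 plasma libraries, with minipigs by symbol and a line of equal counts. The points lie along the line, and minipig 1 sits at 73 to 239 counts of miR-374b-5p whatever its depth, with 5 of the minipig 2 libraries at 6 to 25.

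miR-374b-3p, the opposite arm of MIR374B, partly resembled miR-374b-5p. In minipig 1 it had 34 counts at C7 and 24 at C1, then 51, 60, 40 and 61 over the Early draws, 77 and 21 over those of Mid, 67 in the Late draw and 77 in the LR draw. Its log2 CPM was highest in the same 3 small libraries, with 10.71 at C7, 10.84 at 10d and 11.64 at 17d, against 7.32 to 8.36 in the other 7. Minipig 2 ranged from 4 counts at 17d to 149 at C1, and its 3p counts of 23, 10 and 21 at 7d, 10d and 14d were above the 5p counts of 11, 6 and 9. Its Mid mean differed from pre-TBI by -0.67, against -2.33 for the 5p arm. In minipig 3 the 3p arm had 19 to 48 counts, 120 in all against 85 of the 5p arm, and its Early mean differed from pre-TBI by -0.45, against 0.37. The Spearman correlation of both arms over the 24 libraries was 0.85, and it was 0.72 within minipig 1 and 0.76 within minipig 2.

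miR-374a-3p, the opposite arm of MIR374A, did not share this course. In minipigs 1 and 2 its counts were low in small libraries and high in large ones, from 2 at C7 to 38 at 20d in minipig 1 and from 1 at 17d to 70 at 0d in minipig 2. In minipig 3, whose totals were close to each other, it had 38 to 58 counts. In minipig 1 its log2 CPM stayed between 6.48 and 7.63. Minipig 2 went from 7.10 at C7 and 7.29 at C1 to 4.55 at 17d and 5.98 at 20d, where the 17d value rests on 1 count. The Spearman correlation of the arms of MIR374A was 0.49 over all 24 libraries, -0.08 over the 10 of minipig 1 and 0.79 over the 10 of minipig 2.

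The relation of counts to depth was set against all rows as a description. In minipig 1 the Spearman correlation of a row's count with the library total had a median of 0.93 over the 411 rows and was at or below 0 for only 4 of them. These 4, chosen after their values were seen, were miR-374b-5p (-0.21), miR-374a-5p (-0.16), miR-376a-5p (-0.05) and miR-202-5p (-0.30). In minipig 2 miR-374b-5p had a correlation of 0.73 and miR-374a-5p of 0.65, with a median of 0.89 over all rows. The log2 CPM of miR-374b-5p had a correlation with the total of -0.93 in minipig 1 and 0.10 in minipig 2. For miR-374a-5p these were -0.94 and 0.20. They were not the only members with this relation, since miR-421-5p had -0.95 and 0.08. In minipig 1 the value was -0.75 for miR-545-5p, -0.68 for miR-545-3p and -0.56 for miR-374b-3p. It was -0.03 for miR-374a-3p and 0.24 for miR-421-3p. All rows of a library share its total, so these values are not independent of each other.

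**Figure D3:**
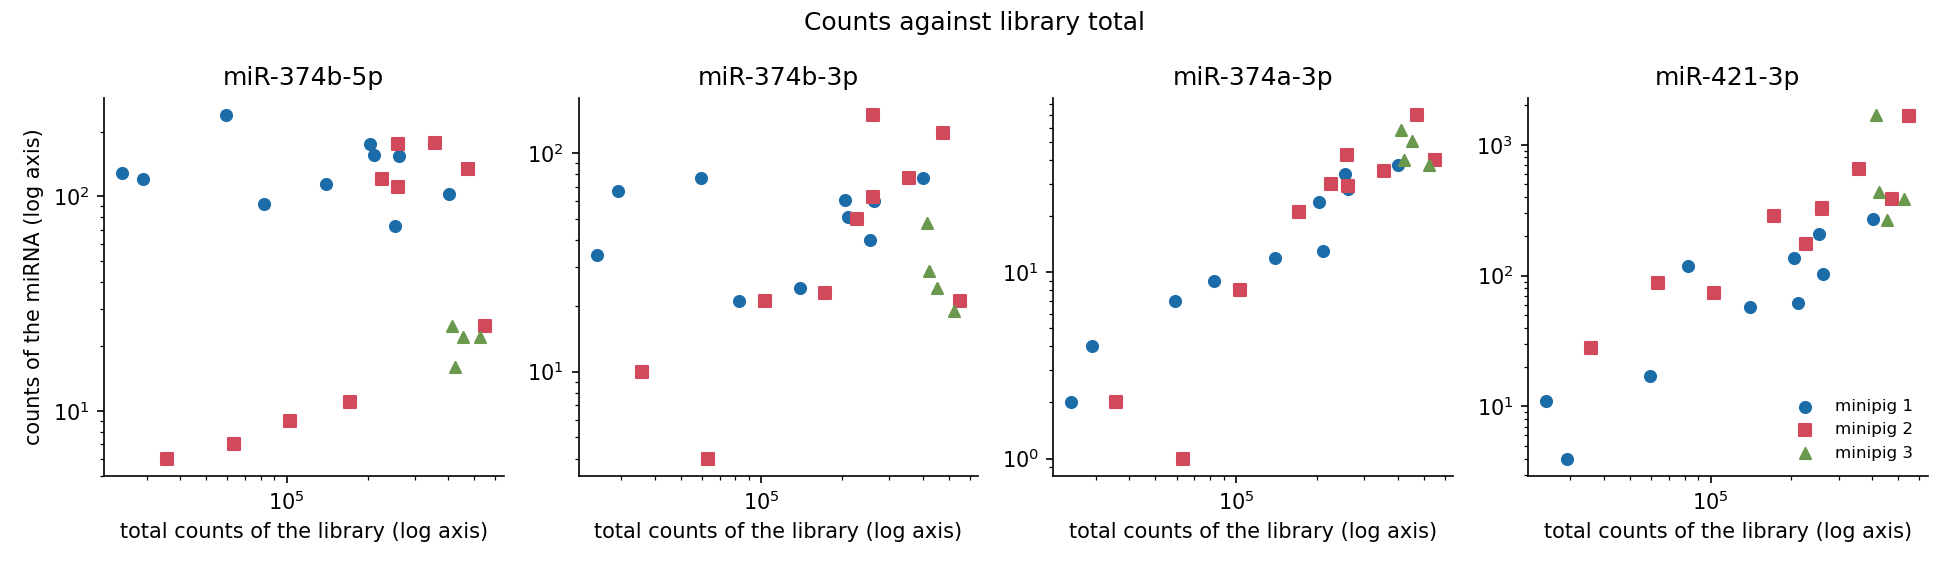
Counts of 4 of the miRNAs (y axis, log scale) against the total counts of the library (x axis, log scale) for 24 libraries, with minipigs by symbol. miR-374a-3p and miR-421-3p rise with the total, while miR-374b-5p in minipig 1 stays at 73 to 239 counts over totals of 24341 to 401408 and in minipig 2 forms a high set up to 3d and a low set from 7d.

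miR-421-3p, the abundant arm of MIR421, behaved differently from the miR-374 5p arms. Before TBI its log2 CPM was 9.10 at C7 and 8.94 at C1 in minipig 1, 9.56 and 10.13 in minipig 2, and 11.53 and 9.84 in minipig 3. The C7 library of minipig 3 held 1682 counts of it and the C1 library 437, at totals of 413030 and 423325. That difference, -1.69 on the log2 scale, was the 2nd lowest of 411 between these libraries, and neither of them was irradiated. After TBI the level was 8.64 to 10.54 at Early, 8.69, 10.32, 9.37 and 9.34 at Mid, 7.63 and 10.44 at Late, and 9.67 and 11.16 at LR. The lowest of these, in minipig 1 at 17d, rests on 4 counts. The Spearman correlation of miR-421-3p with miR-374b-5p over the 24 libraries was -0.61, and it was -0.38 within minipig 1 and -0.26 within minipig 2.

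miR-421-5p, the minor arm, had 3 to 51 counts before TBI and 1 to 20 after it. Before TBI its log2 CPM ranged from 5.28 to 7.28 with a median of 6.06. At Early it ranged from 4.44 to 5.73 with a median of 5.27, at Mid it was 6.30 and 5.66 in minipig 1 and 4.95 and 5.09 in minipig 2, at Late 6.68 and 6.14, and at LR 4.84 and 4.76. The Early, Mid and Late values overlapped those before TBI, and both LR values lay below all 6. This was the only one of 32 member and phase combinations without overlap. Of all 411 rows, 9.25% did not overlap at LR, 10.9% at Late, 1.46% at Mid and 0.243% at Early, so 1 of 8 at LR is near that background.

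The arms of MIR545 were the least abundant. ssc-miR-545-3p had 3 to 33 counts before TBI, 3 to 40 at Early, 1 to 6 at Mid, 1 and 3 at Late, and 9 and 10 at LR. At Late both libraries were at or under 3 counts, so no fold change is given. Its log2 CPM was 4.94 to 7.28 with a median of 6.06 before TBI, 4.06 to 6.62 with a median of 5.18 at Early, and 5.11 and 4.43 at LR. miR-545-5p had 1 to 29 counts before TBI and 1 to 32 after it. Its log2 CPM was 4.61 to 6.26 with a median of 5.85 before TBI and 4.32 to 5.90 with a median of 5.20 at Early. At Mid it was 6.68 and 6.17 in minipig 1 and 5.76 and 5.92 in minipig 2, at Late 5.79 and 7.06, and at LR 4.98 and 5.70. All groups after TBI overlapped those before it for both arms.

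Each phase was then compared with pre-TBI by edgeR's quasi-likelihood test over all 411 rows, with Benjamini-Hochberg adjustment. At Early all 8 members had a negative log2 fold change, from -1.75 to -0.04 with a median of -0.85, whereas 48.7% of all rows were lower and their median was 0.02. Within animals the members did not all go one way. Both miR-374a-3p and miR-421-3p were higher than their own pre-TBI mean in 2 of 3 minipigs. Each miR-374 5p arm was lower in 2 of 3, and miR-374b-3p, miR-421-5p, miR-545-5p and miR-545-3p in 3 of 3. No member had an adjusted p under 0.05, nor did any of the 411 rows (0%). That background depends on the scaling and the tool, since 13 rows passed with library size only, 12 with DESeq2 size factors and 33 with the DESeq2 Wald test. At an unadjusted p under 0.05 there were 2 of 8 members and 77 of 411 rows (18.7%), so the members' share is near the background. A further fit left out every library under 100000 counts, which were 1 pre-TBI library, that of minipig 1 at C7, and libraries of Mid and Late. It brought miR-374b-5p from -1.75 to -0.15 and miR-374a-5p from -1.66 to 0.03. A fit of all 24 libraries with the minipig as a replicate block put them at -1.06 (SE 0.59) and -0.98 (SE 0.61). With that C7 library kept and only the 2 groups compared in the fit, 38 rows had an edgeR adjusted p under 0.05.

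The 2 members with an unadjusted p under 0.05 at Early were miR-421-5p and miR-545-5p. miR-421-5p had a log2 fold change of -0.96 at Early (SE 0.30, edgeR adjusted p = 0.086, unadjusted p = 0.0038), and its mean was lower than before TBI in 3 of 3 minipigs, with differences of -1.19, -0.64 and -1.16. miR-545-5p had a log2 fold change of -0.74 (SE 0.32, edgeR adjusted p = 0.23), also lower in 3 of 3 minipigs. miR-545-3p was lower in 3 of 3 as well, with a log2 fold change of -0.62 (SE 0.41, edgeR adjusted p = 0.377). With the minipig as a replicate block it was at -0.97 (SE 0.37, edgeR unadjusted p = 0.0164, adjusted p = 0.155), which made 3 of 8 members under an unadjusted p of 0.05, against 92 of 411 rows. miR-374b-5p was lower in minipigs 1 and 2, with differences of -2.02 and -1.26, and higher in minipig 3, by 0.37.

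At Mid 4 members had positive and 4 negative fold changes, from -0.64 to 0.65. With the minipig as a replicate block 7 of 8 were negative, since miR-374a-5p, miR-374b-5p and miR-374b-3p became -0.58, -0.52 and -0.11. None of the 8 and 5.35% of the 411 rows had an unadjusted p under 0.05, and no row of the table had an adjusted p under 0.05 (0%). The minipigs went apart for the miR-374 5p arms. miR-374b-5p differed from its own pre-TBI mean by -0.05 in minipig 1 and by -2.33 in minipig 2, lower in 2 of 2, although its fold change without the block was 0.37.

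At Late 22.6% of all rows had an unadjusted p under 0.05 against pre-TBI and 4.38% an adjusted p under 0.05. None of the 8 members passed either. Of the 7 with a fold change, 5 were higher and 2 lower, with a median of 1.06 in the fit without a replicate block. The largest was 2.03 for miR-374b-3p (SE 1.12, edgeR adjusted p = 0.272), and it joined a difference of 2.43 in minipig 1 with one of -2.28 in minipig 2. miR-374a-5p was likewise at 1.41 in minipig 1 and -3.73 in minipig 2, and miR-374b-5p at 1.21 and -2.27. The baseline also holds minipig 3, which has no Late library in use. With the minipig as a replicate block the same 5 members were higher, but several by less. miR-374b-3p went from 2.03 to 0.95, miR-374a-5p from 1.19 to 0.05 and miR-374b-5p from 1.11 to 0.12.

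At LR 7 members were lower and 1, miR-421-3p, was higher, with a median of -1.53. miR-374a-5p and miR-374b-5p had the largest differences, -3.04 (SE 1.93) and -2.96 (SE 1.91), and both minipigs were lower for each, with miR-374b-5p at -2.97 in minipig 1 and -3.74 in minipig 2. An unadjusted p under 0.05 was reached by 2 of 8 members against 5.60% of all rows, and an adjusted p under 0.05 by no row (0%). The 2 were miR-421-5p, with a log2 fold change of -1.57 (SE 0.49, edgeR adjusted p = 0.337), and miR-545-3p, with -1.49 (SE 0.68, edgeR adjusted p = 0.593). With the minipig as a replicate block 5 of 8 had an unadjusted p under 0.05, miR-374a-5p, miR-374b-5p and miR-374b-3p besides these, against 11.9% of all rows, and the smallest edgeR adjusted p was 0.227. Without the libraries under 100000 counts miR-374b-5p was at -1.48 and 1 member, miR-421-5p, had an unadjusted p under 0.05.

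**Figure D4:**
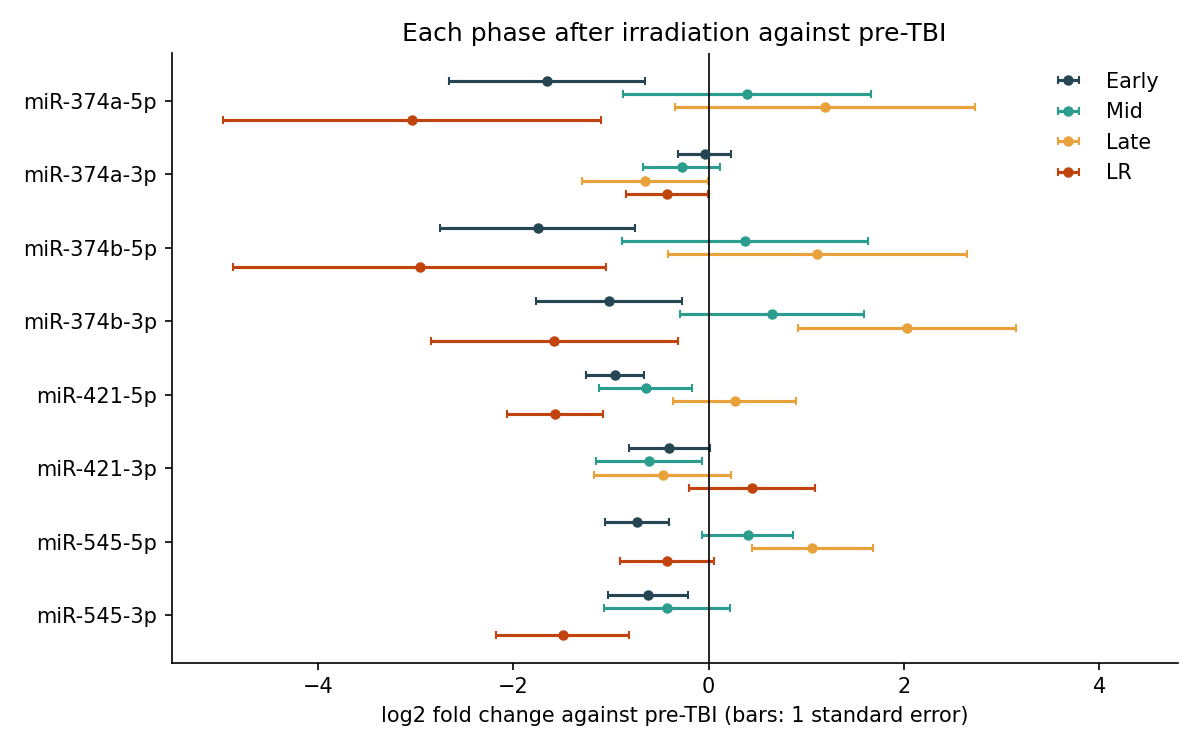
Log2 fold change (x axis) of each member (y axis) at Early, Mid, Late and LR against pre-TBI from edgeR, with bars of 1 standard error. All 8 lie below 0 at Early, from -1.75 to -0.04, the errors of the miR-374 5p arms reach 1.93 at LR, and miR-545-3p has no Late point because its counts were 1 and 3.

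Consecutive phases gave no member with an adjusted p under 0.05 either. From Early to Mid 6 members were higher and 2 lower, and 2 of 8 had an unadjusted p under 0.05, against 23.1% of all rows (adjusted, 0%). These were miR-374b-3p at 1.67 (SE 0.81, edgeR adjusted p = 0.215) and miR-545-5p at 1.13 (SE 0.44, edgeR adjusted p = 0.126). With the replicate block 1 of 8, miR-545-5p, was under that limit. From Mid to Late 6 of 7 were higher and none of the 8 had an unadjusted p under 0.05, against 17.5% of rows, with an adjusted p under 0.05 in 4.62% of rows. From Late to LR 5 of 7 were lower, and 3 of 8 had an unadjusted p under 0.05 against 32.1% of rows, with 0.730% at an adjusted p under 0.05. The 3 were miR-374b-3p at -3.61 (SE 1.53), miR-421-5p at -1.84 (SE 0.74) and miR-545-5p at -1.49 (SE 0.70), and their smallest edgeR adjusted p was 0.109. With the replicate block there were 5 of 8, and without minipig 1 or without minipig 2 there were 0. None of these shares of the members was tested against the background.

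When time points were compared singly, miR-421-5p was the only member with an unadjusted p under 0.05. It was at -0.95 at 0d (edgeR adjusted p = 0.468), where 8.52% of all rows passed, and at -0.96 at 1d (edgeR adjusted p = 0.37), where 12.2% did. It was at -1.24 at 7d (edgeR adjusted p = 0.546), with 8.27% of rows, and at -1.58 at 20d (edgeR adjusted p = 0.427), with 7.06%. No member passed at 3d, 10d, 14d or 17d. Of all rows, 8.52% did at 3d, 7.30% at 10d, 37 of 411 at 14d and 23.8% at 17d. The smallest edgeR adjusted p of any member at any time point was 0.285, that of miR-374b-3p at 17d. The time points share the 6 pre-TBI libraries.

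The baseline draws C1 and C7 gave a measure of change without irradiation. Between them miR-374a-5p had a log2 fold change of -2.29 (SE 1.77), miR-374b-5p of -2.07 (SE 1.75) and miR-374b-3p of -1.09 (SE 1.27), and the edgeR adjusted p was 0.997 for all 8 members. None of the 8 and 0.730% of rows had an unadjusted p under 0.05. Of the 8 members, 7 were lower at C1 than at C7, with a median of -0.70, while 52.1% of all rows were lower. For miR-374b-5p the -2.07 between the baseline draws is a larger difference than that at Early. It came mainly from minipig 1, where C1 minus C7 was -2.73, against 0.22 in minipig 2 and -0.33 in minipig 3. The C7 library of minipig 1 was the smallest of the 24.

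The balance of the arms was followed as the log2 ratio of 5p to 3p counts within a library, which needs no scaling between libraries. Over all 24 libraries the 5p arm made up 76.5% of miR-374a counts (exact binomial 95% interval 74.9 to 78.1), 65.4% of miR-374b, 3.01% of miR-421 (2.64 to 3.41) and 50.3% of miR-545 (45.7 to 54.9). These intervals cover counting error only. For miR-374a the share was 87.9% in minipig 1, 72.7% in minipig 2 and 32.7% in minipig 3, where counts of each animal were pooled. The 3p arm had the more counts in all 4 libraries of minipig 3 and in the 7d and 20d libraries of minipig 2. Since miR-374a-5p may share reads with miR-374b-5p, its share of miR-374a counts is uncertain. For miR-374b it was 72.6%, 58.9% and 41.5%. The log2 ratio of miR-374a ranged from -1.30 to 5.59 over the libraries, and that of miR-421 from -6.83 to -0.85, all of them below 0.

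Changes of the ratios were tested by a two-sided exact permutation of the time labels within each minipig, a test added after the values were seen, over 4 hairpins and 4 phases. The ratio of miR-421-5p to miR-421-3p was lower at Early than before TBI, with an average log2 difference of -0.93 (exact permutation p = 0.00148 over 1350 arrangements, 0.0237 adjusted over the 16 tests). It was lower in 3 of 3 minipigs, with means of -4.67 (SD 0.87, n = 10) at Early and -3.82 (SD 1.22, n = 6) before TBI, which overlapped between animals. Without the pre-TBI library under 100000 counts it was -0.69 (exact permutation p = 0.0156) and without minipig 1 also -0.69 (exact permutation p = 0.0778). The 5p counts behind it were 3 to 20 at Early and 3 to 51 before TBI. In minipig 1 the C7 library had 3 counts of the 5p arm and 11 of the 3p arm.

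The other 15 tests had an exact permutation p of 0.0556 or more. The smallest was that of miR-545-5p to miR-545-3p at Mid, 1.46 higher than before TBI and higher in 2 of 2 minipigs. At LR the ratio of miR-374a differed by -3.02 and that of miR-421 by -2.74, each lower in 2 of 2 minipigs (exact permutation p = 0.111 for both). That is the smallest p that 9 arrangements allow, so Late and LR could not reach 0.05. The ratio of miR-374b-5p to miR-545-3p, members of neighbouring hairpins, differed from pre-TBI by 0.29 in the Early phase (exact permutation p = 0.612), by -0.38 in Mid (exact permutation p = 0.667), by -0.16 in Late (exact permutation p = 1) and by -1.51 in LR (exact permutation p = 0.111).

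**Figure D5:**
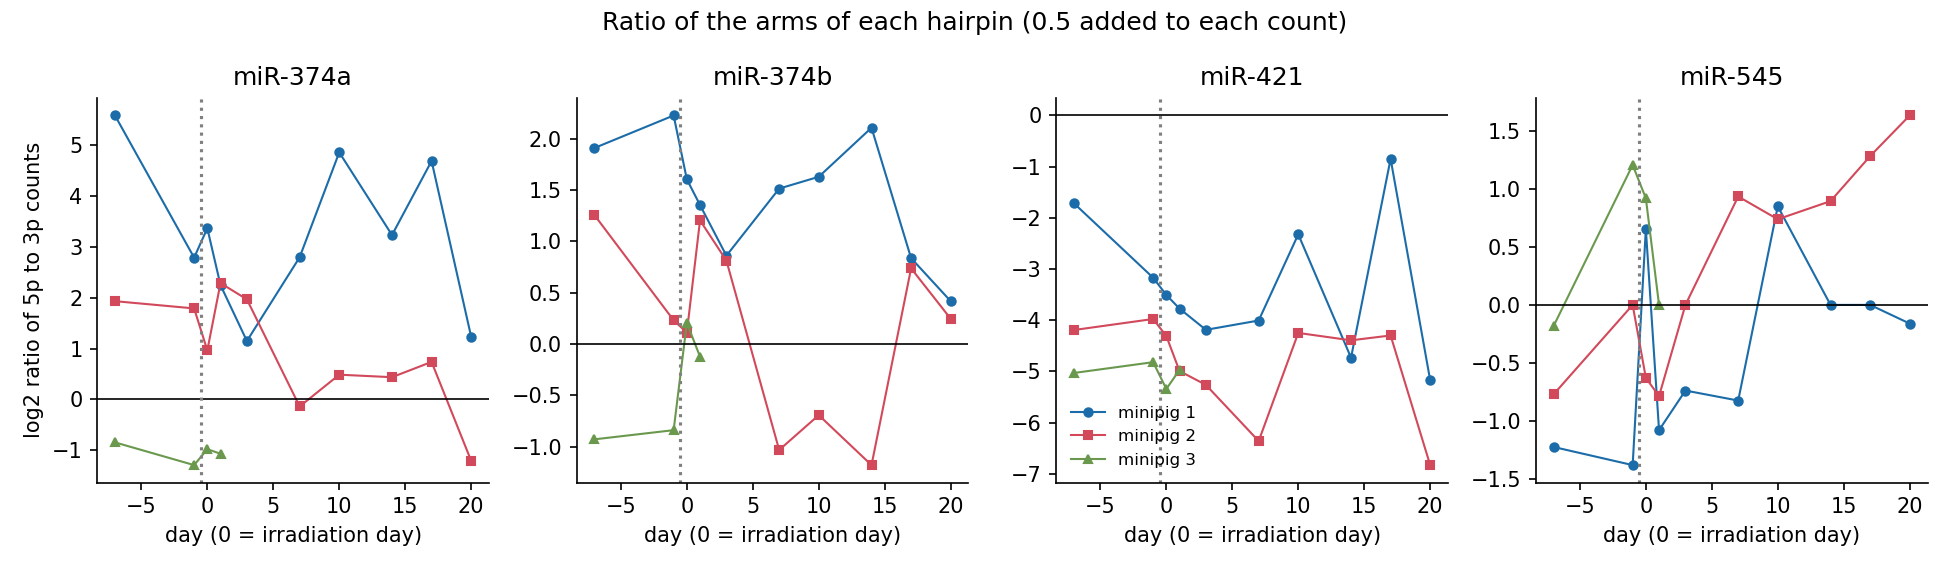
Log2 ratio of 5p to 3p counts (y axis, 0.5 added to each count, each panel with its own scale) of the 4 hairpins by day (x axis, 0 being the day of TBI) in the 3 minipigs, 1 point per library. For miR-374a minipig 1 lies above 1.1 and minipig 3 below -0.8 in all their libraries, and for miR-421 every library lies below 0, between -6.83 and -0.85.

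Across the 24 libraries the rows most like miR-374b-5p, besides miR-374a-5p, were miR-378b-3p (Spearman 0.94), miR-376b (0.93), miR-376c (0.92), miR-9850-5p (0.91) and miR-494 (0.90), and the row least like it was miR-769-5p (-0.69). For miR-374b-3p they were miR-146b, miR-146a-5p, miR-490-3p, miR-490 and miR-9850-5p, all at 0.93. miR-421-5p was most like miR-105-1 and miR-105-2 (both 0.83), which are near-copies of each other, and then another member of the cluster, miR-545-3p (0.78). miR-421-3p was most like miR-24-1-5p (0.73) and least like miR-185 (-0.80), miR-545-5p was most like miR-29c (0.79), miR-545-3p like miR-497 (0.79) and miR-374a-3p like miR-186 (0.65). These are descriptions over libraries that share animals and depth. With library size alone as the scaling, 5 of the 5 rows most like miR-374b-5p recurred, and 2 to 4 of 5 for the others.

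A list of miRNAs known as X-linked in mammals, with the 8 members left out, had 33 rows in the table, of which 24 matched a RefSeq gene by name, all 24 on the pig X chromosome. None had an adjusted p under 0.05 in any phase. At an unadjusted p under 0.05 the list had 1 higher and 4 lower at Early, 3 and 1 at Mid, 7 and 1 at Late, and 2 and 0 at LR. These are 15.2%, 12.1%, 24.2% and 6.06% of the list, against 18.7%, 5.35%, 22.6% and 5.60% of all rows, and no difference between these shares was tested. Its median log2 fold change was -0.14, 0.16, 0.32 and -0.20 in these phases, against -0.85, 0.05, 1.06 and -1.53 for the members and 0.02, 0.05, 0.08 and -0.01 for all rows. All of these medians come from the fit without the minipig as a replicate block. The members' 1.06 at Late covers the 7 with a fold change, while the list and all rows were not screened for low counts. Over all 8 members the Late median was 0.66. The smallest p at Early was that of miR-221-5p (-2.10, edgeR adjusted p = 0.0657), followed by miR-542-5p (-0.89) and miR-450b-3p (-0.90). At Late miR-424-5p (1.68, edgeR adjusted p = 0.0881), miR-450c-3p (2.19) and miR-222 (0.79) led, at Mid miR-222 (0.57), miR-361-5p (1.07) and miR-106a (-0.60), and at LR miR-424-3p (1.24), miR-222 (0.57) and miR-542-5p (-1.02).

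Marker miRNAs of the cells that release RNA into plasma were summed per library, since fewer cells of a type and less RNA per cell cannot be told apart in plasma. Red cell markers (3 rows) lay at 10162 to 90228 CPM before TBI, 8272 to 70630 at Early, 9091 to 29277 at Mid, 6036 to 10230 at Late and 13116 to 16711 at LR. Platelet markers (3 rows) lay at 8833 to 21129 before TBI, 10647 to 75650 at Early, 4773 to 13945 at Mid, 1509 to 5864 at Late and 7647 to 9462 at LR. The platelet list was miR-223, miR-126 and miR-191, and whether these came from platelets alone was not tested. Leukocyte markers (6 rows) ranged from 1400 to 5762 over all libraries and muscle markers (8 rows) from 1302 to 5593. Liver markers (5 rows) lay at 4192 to 6784 before TBI, 2401 to 8837 at Early, 3523 to 9765 at Mid, 3089 to 3464 at Late and 9270 to 12253 at LR. In every phase 0 of these rows had no counts. The part of these sources in the levels of the members was not tested.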

How the data were processed

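The members and lists were chosen with earlier results of these data known. The authors prepared TruSeq small RNA libraries from plasma, trimmed reads with Cutadapt, aligned them with Bowtie2 2.2.3.0 per the labels to the pig genome and miRBase, and quantified ssc-miRNAs with miRDeep2. How reads matching several miRNAs were assigned is not given in the sources used here. The deposited values are raw counts per ssc-miRNA, without normalization. Libraries under 1000 counts were left out. Counts were tested with edgeR 4.0.16 in R 4.3.3 (quasi-likelihood test, TMM, CPM above 0.5 in at least 3 libraries, passed by all 411 rows, 5 phase groups in 1 fit), with fits of single time points against pre-TBI and of C1 against C7. DESeq2 1.42.0 was an alternative. P-values were adjusted by Benjamini-Hochberg over the 411 rows. Fold changes use a prior count of 0.125 and levels a prior count of 2. Standard errors (SE) were taken as the absolute log2 fold change over the root of the F statistic. Fold changes are withheld where all libraries of a group had at most 3 counts in the full data. Fits that left out a minipig were not screened again for this limit. The common biological coefficient of variation was 0.496. Ratios added 0.5 to each count and were tested in Python 3.11.15 with scipy 1.17.1. The fits were checked on simulated counts.

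Totals of 24341 to 550316 counts set the precision, and intervals cover counting error only. Libraries of the same minipig are paired by design. After the phase means were subtracted, libraries of 1 animal correlated at 0.169 on average (78 pairs) and those of 2 animals at -0.102 (130 pairs). No pair of libraries of one phase agreed within sampling noise (lowest chi-square per degree of freedom, 21.8). Named miRNAs are the 8 members, for each of them the 5 most and 2 least similar rows by Spearman correlation, and in the X-linked list the 3 rows with the smallest p in each phase. miR-376a-5p and miR-202-5p fall outside this rule and were named after their values were seen. miR-223, miR-126 and miR-191 are named as the platelet list. The design of the tests named 2 members, and the rule found 8 rows. The arm ratios and the fit without libraries under 100000 counts were added after the data were seen. Mature sequences and coordinates are not used here.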

Additional observations from a re-analysis of the deposited data

Results flagged for a closer look

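In 39 groups of 4 to 10 libraries, formed by the 8 members and 5 ratios in the pre-TBI, Early and Mid phases, 1 library stood apart from the rest by Dixon's criterion at the 95% level, where chance alone gives about 1.95. This was miR-374b-3p at Mid in minipig 1 at 10d, with a log2 CPM of 10.84 against 7.86, 7.91 and 7.59 in the other 3 Mid libraries. Its gap to the nearest of them was 0.9 of the whole range, and it rests on 77 counts in a library of 59291.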

How the results depend on the processing

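No member reached an adjusted p under 0.05 under any of the alternatives run, which were library size or DESeq2 size factors in place of TMM, no filter or filterByExpr, the DESeq2 Wald test, the minipig as a replicate block, thinning to the smallest library, C7 or C1 alone as the baseline, only the 2 groups compared, leaving out each minipig, and leaving out libraries under 100000 counts. The smallest edgeR or DESeq2 adjusted p was 0.0542. Of 661 fold changes, 611 kept their sign and 50 reversed, and the cause was not tested. Rows of the whole table with an adjusted p under 0.05 ran over the alternatives from 0 to 43 at Early, 0 to 77 at Late, 0 to 6 at LR, 0 to 44 at Mid against Early, 0 to 45 at Late against Mid and 0 to 66 at LR against Late, and were 0 at Mid throughout. Where leaving out a minipig left 1 library in a phase, it was assumed to vary like the other groups. The limits are the 3 animals, of which 2 reach Mid, Late and LR, counts under 10 for miR-421-5p and both miR-545 arms in most small libraries, and totals that differ between phases.

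With the replicate block, Mid against pre-TBI became -0.58 for miR-374a-5p, -0.52 for miR-374b-5p and -0.11 for miR-374b-3p, and miR-421-3p became 0.12 at Mid against Early and -0.26 at Late against Mid. Members with an unadjusted p under 0.05 became 5 at LR, 1 at Mid against Early and 5 at LR against Late, and no other count of members moved by over 1.5 times, although miR-545-3p passed that limit at Early. With library size only, miR-421-5p became -0.073 at Late and miR-421-3p -0.039 at Late against Mid, with 1 such member at Mid against Early and 1 at LR against Late. Thinning gave 0.27 and 0.083 for miR-374a-3p at Early and LR and 0.15 at Late against Mid, -0.65 and 0.16 for miR-545-5p at Mid and LR, and -0.66 for miR-545-3p at Mid against Early, with 1, 0 and 1 such members at Early, LR and Mid against Early. With C7 as the baseline, miR-374a-5p and miR-374b-5p became -0.29 and -0.26 at Mid and miR-421-5p -0.23 at Late. With C1, miR-421-3p became 0.041 at Early, and such members numbered 0 at Early, 1 at Late and 1 at LR. The DESeq2 Wald test gave 4 at LR, and the fit with only the 2 groups gave 4 at Mid against Early. Without libraries under 100000 counts miR-374a-5p became 0.030 at Early, with 1 such member at LR.

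Leaving out each minipig moved these fold changes across 0, although some rest on a group with at most 3 counts. Without minipig 1 the Late phase holds 1 count of miR-374a-3p and 2 of miR-374a-5p, and Mid holds 1 and 3 of miR-545-3p. Without minipig 2 the Late phase holds 1 count of miR-545-5p. Against pre-TBI, miR-374a-5p ran from -1.69 to 1.02 at Mid and -3.12 to 1.59 at Late, miR-374b-5p from -1.56 to 0.99 and -1.44 to 1.49, and miR-374b-3p from -0.13 to 1.39 and -1.82 to 2.78. miR-374a-3p ran from -0.20 to 0.10 at Early, -0.96 to 0.40 at Mid, -2.89 to 0.68 at Late and -1.03 to 0.071 at LR. miR-421-3p ran from -1.12 to 0.30, -1.26 to 0.077, -3.07 to 0.17 and -0.85 to 1.15 in the same phases. miR-545-5p ran from -0.13 to 0.76 at Mid and -0.24 to 1.20 at Late, and miR-545-3p from -1.10 to 0.25 at Mid. For Mid against Early the ranges were -1.35 to 2.87 (miR-374a-5p), -0.80 to 0.29 (miR-374a-3p), -1.06 to 2.89 (miR-374b-5p), -0.21 to 0.97 (miR-421-5p), -0.72 to 0.56 (miR-421-3p) and -0.57 to 1.33 (miR-545-3p). For Late against Mid they were -1.43 to 0.57 (miR-374a-5p, with 0.80 in the full fit), -1.93 to 0.28 (miR-374a-3p), -1.69 to 1.38 (miR-374b-3p), -2.51 to 1.10 (miR-421-3p) and -1.00 to 1.33 (miR-545-5p), and for LR against Late -0.61 to 1.86 (miR-374a-3p). Members with an unadjusted p under 0.05 ran from 1 to 2 at Early, 0 to 1 at Mid and at Late, 1 to 4 at LR, 0 to 2 at Mid against Early and 0 to 4 at LR against Late. The ratio of miR-374b-5p to miR-545-3p ran from -0.62 to 0.81 at Early, -1.30 to 0.53 at Mid and -1.98 to 1.65 at Late. Arm ratios ran from -1.13 to 0.50 for miR-374a at Late, -0.60 to 0.23 for miR-374b and -1.29 to -0.69 for miR-421 at Early, and -0.21 to 1.60 for miR-421 at Late. Adding 1 in place of 0.5 changed the sign of no ratio.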
